A study of Mus musculus with 8 samples.

Results

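The superoxide dismutases, catalase and the glutathione peroxidases are the enzymes that remove superoxide and hydrogen peroxide directly. The rows of the deposited expression table named Sod1, Sod2, Cat, Gpx1, Gpx4, Gpx3, Gpx7 and Gpx8 were taken, which gave 8 of 19688 genes. All 8 were among the 10755 genes that reached 1 FPKM in at least 2 libraries and were tested. Of these, 7 were above 1 FPKM in every library, while Gpx8 reached it in 4 libraries, the 3 vitrified ones and fresh replicate 2, and in no melatonin-vitrified library. FPKM counts the fragments of a gene relative to the length of its transcript and to the fragments of the library, so levels of different genes can be set side by side.

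The libraries were made from mouse blastocysts, embryos just before implantation, in which a trophectoderm shell encloses a cavity and the inner cell mass. Melatonin-vitrified blastocysts (3 libraries) were cooled to a glass and thawed in media that held 1e-10 M melatonin, an indoleamine hormone. Vitrified blastocysts (3 libraries) were vitrified with no melatonin. Fresh blastocysts (2 libraries, titled IVF) were never vitrified and served as the control. The labels call the replicates biosamples and do not say whether these are single embryos, pools or cultures, nor give the mouse strain, so p-values measure only the spread between these samples, which may be technical.

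Superoxide dismutases turn superoxide into hydrogen peroxide. Catalase, in peroxisomes, and the glutathione peroxidases, in several compartments, then reduce hydrogen peroxide to water, the peroxidases with electrons from thiols such as glutathione. Cooling, cryoprotectants and warming are known to raise reactive oxygen species in embryos, and the series' design text names oxidative stress and antioxidant enzymes among the study's questions.

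The 5 glutathione peroxidase genes fall into enzymes that carry selenocysteine in their active centre and enzymes that carry cysteine there. Selenocysteine is encoded by TGA, which is otherwise a stop codon, and is inserted by a dedicated machinery. The coding sequence around that codon is shown because it separates the genes that need this machinery from those that do not. Each line gives 39 bases of the coding strand, 5′ to 3′, from GENCODE release M21 on mm10, with the codon of the active-centre residue in capitals.

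Gpx1: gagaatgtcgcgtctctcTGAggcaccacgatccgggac
Gpx4: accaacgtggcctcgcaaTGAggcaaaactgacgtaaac
Gpx3: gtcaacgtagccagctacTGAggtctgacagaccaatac
Gpx7: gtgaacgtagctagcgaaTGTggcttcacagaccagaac
Gpx8: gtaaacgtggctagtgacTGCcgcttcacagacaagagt

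The Gpx1 stretch lies in exon 1 at chr9:108339433-108339471 (plus strand), with TGA as codon 47 of 201. The Gpx4 stretch lies in exon 3 at chr10:80054719-80054757 (plus strand), with TGA as codon 73 of 197. The Gpx3 stretch lies in exon 2 at chr11:54907238-54907276 (plus strand), with TGA as codon 73 of 226. Gpx7 has TGT as codon 56 of 186 in exon 2, at chr4:108403412-108403450 on the minus strand. Gpx8 has TGC as codon 79 of 209 in exon 2, at chr13:113045643-113045681 on the minus strand. The cysteine codons of Gpx7 and Gpx8 were placed by aligning their translated proteins with that of Gpx1. The selenocysteine of Gpx1 was read as cysteine for this alignment. Outside the capitals, Gpx7 and Gpx8 shared 28 of 36 bases and Gpx3 and Gpx7 shared 27, while Gpx1 shared 16 to 19 with each of the other 4.

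The genes differed widely in level and kept much of their order in every library. Sod2, the manganese enzyme of the mitochondrial matrix (chromosome 17, 13006846 to 13040063, plus strand), stood first with a mean of 227 FPKM over the 8 libraries and a range of 174 to 265 FPKM. Gpx4, which reduces lipid hydroperoxides in membranes, averaged 58.8 FPKM, and Gpx1, the abundant peroxidase of cytosol and mitochondria, averaged 57.8 FPKM. The lowest Sod2 library lay above the highest Gpx4 library, which had 92.8 FPKM, whereas Gpx4 exceeded Gpx1 in 3 of 8 libraries and the pair was not separated beyond its spread.

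Sod1, the copper and zinc enzyme of the cytosol, averaged 30.6 FPKM. Gpx3, the secreted peroxidase, averaged 28.6 FPKM and Cat, the catalase gene, 21.05 FPKM. The ranges of Sod1, Gpx3 and Cat overlapped one another, and those of Gpx1 and Sod1 overlapped as well, although Gpx1 was the higher of that pair in all 8 libraries. Gpx7, an endoplasmic reticulum enzyme that acts with protein disulphide isomerases, averaged 5.00 FPKM, and its range lay wholly below that of Cat. Gpx8, a membrane-anchored relative in the same compartment, averaged 1.36 FPKM and was below Gpx7 in all 8 libraries, although their ranges overlapped. By mean FPKM, Sod2 stood at percentile 97.3 of the tested genes, Gpx7 at 46.8 and Gpx8 at 16.0.

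**Figure D1:**
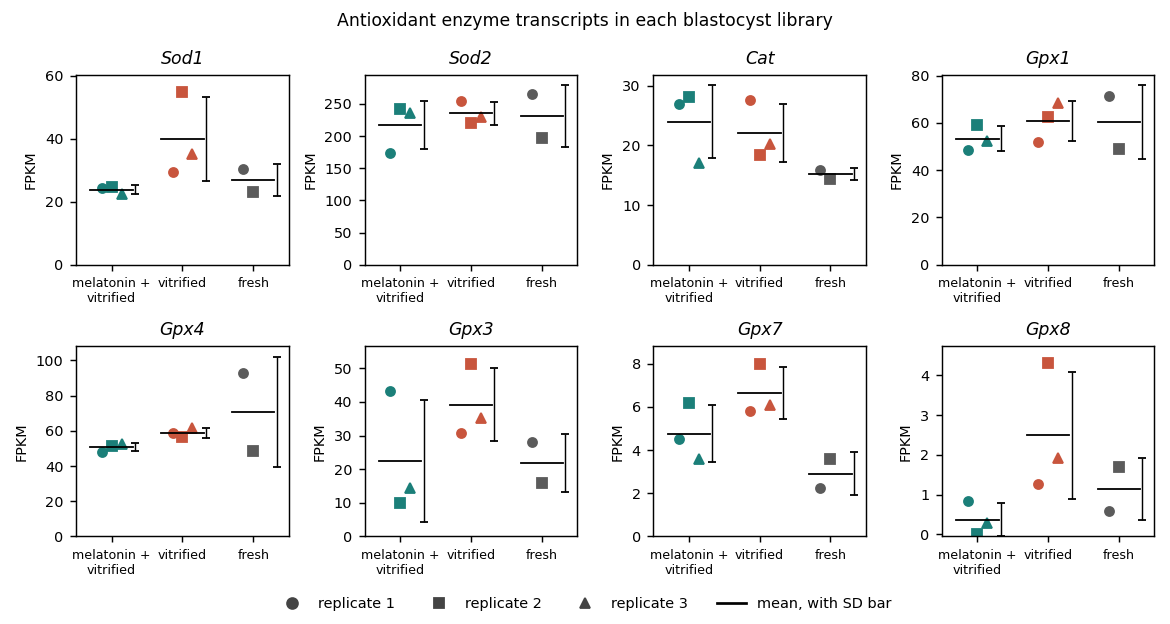
FPKM of each of the 8 antioxidant enzyme genes (vertical axes, starting at or just below 0, with a different scale in each panel) in melatonin-vitrified, vitrified and fresh blastocysts; each symbol is 1 library, the horizontal line is the group mean and the bar its SD. Sod2 lay between 174 and 265 FPKM in all libraries, while Gpx3 was at 43.2 FPKM in melatonin-vitrified replicate 1 and at 9.82 and 14.5 FPKM in the other melatonin-vitrified libraries.

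Summed over the 8 genes, the level was 370, 421 and 398 FPKM in melatonin-vitrified replicates 1 to 3, 460, 476 and 458 FPKM in vitrified replicates 1 to 3, and 506 and 354 FPKM in fresh replicates 1 and 2. Sod2 made up 46.3% to 59.1% of that sum. The vitrified sums all lay above the melatonin-vitrified sums, and both groups lay inside the range of the fresh pair. The genes together made up 0.0886% to 0.119% of all FPKM of a library.

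The libraries themselves differed. Estimated depth was lowest in fresh replicate 2, at 5815000 fragments, and highest in fresh replicate 1, at 9997000 fragments. Genes above 0 FPKM numbered 14544 to 14889 in melatonin-vitrified, 15749 to 16400 in vitrified, and 14260 and 14741 in fresh blastocysts. Fresh replicate 1 stood apart, at -52.5 on a first principal component on which the other 7 libraries lay between -14.2 and 18.4, and with 11.3% of FPKM from mitochondrial genes against 4.24% to 6.55% elsewhere. All 7 trophectoderm markers were present, summing to 6606 to 11370 FPKM, as were all 5 of the inner cell mass and all 5 of the primitive endoderm. The 5 oocyte markers in the table summed to 0.346 to 4.61 FPKM, 2 of cumulus cells to 0.314 to 1.71 FPKM and 3 of fibroblasts to 0 to 0.453 FPKM.

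The comparison of vitrified with fresh blastocysts set embryos vitrified without melatonin beside embryos never vitrified. It takes the whole procedure together and does not separate its steps. Gpx7 had the widest gap relative to its error. None of the 8 genes passed limma at a Benjamini-Hochberg adjusted p below 0.05, against 0.865% of all tested genes (93 of 10755, 82 higher and 11 lower). At an unadjusted p below 0.05 there was 1 of 8, Gpx7, where 20.2% of all tested genes stood below that value. In 3 of 8 genes, Cat, Gpx3 and Gpx7, every vitrified library lay above both fresh libraries, and the groups also did not overlap in 37% of all tested genes, so that share was near the background.

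Gpx7 (chromosome 4, 108400390 to 108406961, minus strand) had 5.80, 8.01 and 6.09 FPKM in vitrified replicates 1 to 3, against 2.22 and 3.61 FPKM in fresh replicates 1 and 2. The lowest vitrified library thus lay above the higher fresh one. The log2 fold change was 0.97 ± 0.26 (SE, 95% interval 0.38 to 1.57) with an unadjusted p of 0.00457 and a limma adjusted p of 0.0874. On the plain scale, means of 6.63 ± 1.20 FPKM (SD, n = 3) in vitrified and 2.92 ± 0.98 FPKM (SD, n = 2) in fresh blastocysts gave a ratio of 2.28. Without fresh replicate 1 the log2 fold change was 0.72 and the limma adjusted p 0.288, and over all settings tried that p ran from 0.0587 to 0.288.

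Gpx3 (chromosome 11, 54902453 to 54910377, plus strand) had 30.9, 51.4 and 35.1 FPKM in vitrified replicates 1 to 3, against 28.0 and 15.9 FPKM in fresh replicates 1 and 2. The lowest vitrified value was close to the higher fresh one. The log2 fold change of 0.83 had a wide interval, -0.33 to 1.98 (limma adjusted p = 0.397). It was 1.22 without fresh replicate 1 and 0.44 without fresh replicate 2.

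Cat (chromosome 2, 103453849 to 103485160, minus strand), in turn, had 27.6, 18.4 and 20.2 FPKM in vitrified replicates 1 to 3, against 15.9 and 14.4 FPKM in fresh replicates 1 and 2. All vitrified libraries were above the fresh pair, with vitrified replicate 1 highest. Its log2 fold change was 0.49 with an interval of -0.07 to 1.05 (limma adjusted p = 0.3). It was 0.56 without fresh replicate 1 and 0.33 without vitrified replicate 1.

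Sod1 (chromosome 16, 90220754 to 90226329, plus strand) had 29.5, 54.8 and 35.3 FPKM in vitrified replicates 1 to 3, against 30.4 and 23.2 FPKM in fresh replicates 1 and 2. The groups overlapped, and vitrified replicate 2 stood well above the other vitrified libraries. Sod1 had a log2 fold change of 0.52 (interval -0.03 to 1.08, limma adjusted p = 0.274), and 0.27 without vitrified replicate 2.

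Sod2 and Gpx1 had the log2 fold changes closest to 0. Sod2 had 255, 221 and 230 FPKM in vitrified replicates 1 to 3, against 265 and 197 FPKM in fresh replicates 1 and 2. It averaged 235 ± 17.7 FPKM (SD, n = 3) in vitrified and 231 ± 47.7 FPKM (SD, n = 2) in fresh blastocysts, a log2 fold change of 0.04 with an interval of -0.39 to 0.47. Gpx1 (chromosome 9, 108338903 to 108340343, plus strand) had 51.9, 62.4 and 68.2 FPKM in vitrified replicates 1 to 3, against 71.3 and 49.1 FPKM in fresh replicates 1 and 2. For both genes the fresh pair spanned all vitrified libraries. Gpx1 averaged 60.8 ± 8.29 and 60.2 ± 15.7 FPKM in vitrified and fresh blastocysts (log2 fold change 0.03, interval -0.42 to 0.48). Each interval leaves room for a difference of 0.39 or more on the log2 scale in either direction, so the data do not show that these levels were equal.

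Gpx4 (chromosome 10, 80047166 to 80056439, plus strand) was the one gene with a negative log2 fold change, -0.19 (interval -0.72 to 0.34, limma adjusted p = 0.694). It had 58.6, 56.3 and 61.5 FPKM in vitrified replicates 1 to 3, against 92.8 and 48.6 FPKM in fresh replicates 1 and 2. The vitrified values were tight and lay between the fresh pair, and without fresh replicate 1 the log2 fold change was 0.27, of the opposite sign. Gpx8 (chromosome 13, 113042753 to 113046410, minus strand) had 1.26, 4.30 and 1.92 FPKM in vitrified replicates 1 to 3, against 0.591 and 1.69 FPKM in fresh replicates 1 and 2, and the groups overlapped (log2 fold change 0.66, interval -0.26 to 1.58). That value was 0.28 without fresh replicate 1 and 0.31 without vitrified replicate 2.

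Log2 fold changes were positive for 7 of 8 genes with the FPKM as deposited and after quantile normalization, but for 5 of 8 after median-ratio scaling, which turned Sod2 to -0.16 and Gpx1 to -0.17. Without fresh replicate 2 they were positive for 5 of 8 genes, with a median of 0.38 beside 0.22 over all tested genes. The median log2 fold change of the 8 genes was 0.51, beside 0.14 over all tested genes. Of all tested genes, 63.5% had a positive log2 fold change with the FPKM as deposited. That share was 48.5% after quantile normalization and 48.5% after median-ratio scaling. Quantile normalization and median-ratio scaling each moved the median of all tested genes to -0.01 and that of the 8 genes to 0.42 and 0.32. With all genes centred there, Gpx7 was at 0.75 after quantile normalization and 0.82 after median-ratio scaling, and Cat at 0.38 and 0.30 in the same order. Inner cell mass markers summed to 128 to 159 FPKM in vitrified and 21.3 to 71.0 FPKM in fresh blastocysts, and the mitochondrial share was 4.55% to 5.89% in vitrified and 6.55% and 11.3% in fresh libraries. The part of cell makeup in these differences was not tested, and in whole blastocysts fewer cells of a type and less RNA per cell cannot be told apart.

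**Figure D2:**
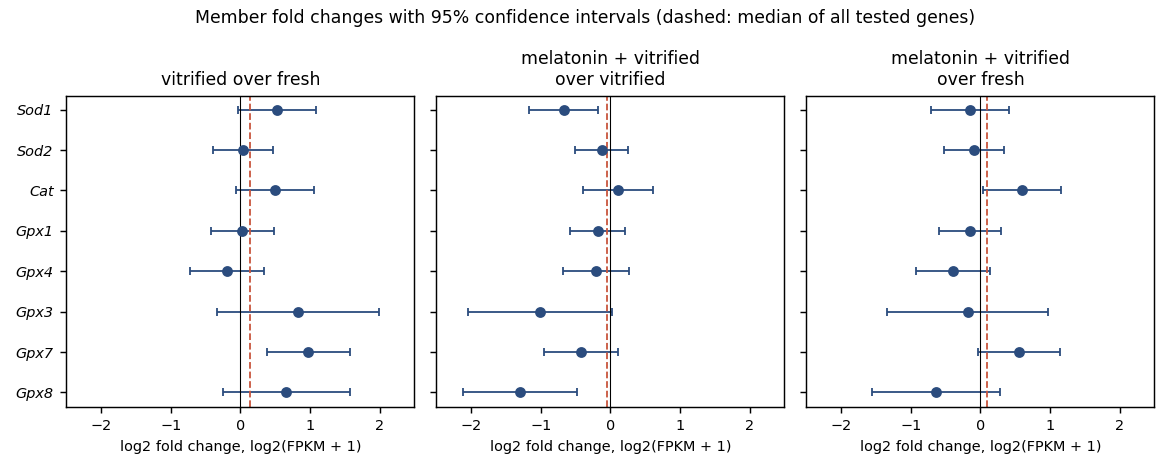
Log2 fold changes on the log2(FPKM + 1) scale of the 8 genes (rows) for vitrified over fresh, melatonin-vitrified over vitrified and melatonin-vitrified over fresh (panels); points are limma estimates, bars their 95% confidence intervals, and the dashed line the median of all tested genes. Intervals that leave out 0 belong to Gpx7 in the first panel, Sod1 and Gpx8 in the second and Cat in the third, before adjustment over the 10755 genes.

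The comparison of melatonin-vitrified with vitrified blastocysts addressed the effect of melatonin in the vitrification and thawing media. The vitrified libraries were also used in the comparison with fresh, so a high vitrified value enters both with opposite sign. None of the 8 genes passed limma at a Benjamini-Hochberg adjusted p below 0.05, against 0.139% of all tested genes (15, with 3 higher and 12 lower). At an unadjusted p below 0.05 there were 2 of 8, Sod1 and Gpx8, beside 14.8% of all tested genes. Gpx8 met the filter on low values through the libraries in which it was high, so its p and its place in these counts are a description and no support. In 3 of 8 genes, Sod1, Gpx4 and Gpx8, every melatonin-vitrified library lay below every vitrified one, beside 24.7% of all tested genes without overlap in either direction.

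Sod1 had 24.5, 24.8 and 22.4 FPKM in melatonin-vitrified replicates 1 to 3, against 29.5, 54.8 and 35.3 FPKM in vitrified replicates 1 to 3. The melatonin-vitrified values lay close together and all under the lowest vitrified library. Means of 23.9 ± 1.31 and 39.9 ± 13.3 FPKM (SD, n = 3 each) in melatonin-vitrified and vitrified blastocysts gave a log2 fold change of -0.67 ± 0.22 (SE, interval -1.17 to -0.17), with an unadjusted p of 0.0137 and a limma adjusted p of 0.234. Without vitrified replicate 2 the value was -0.42 (limma adjusted p = 0.534), and over all settings the adjusted p ran from 0.0953 to 0.534. The 3' part of Sod1 and the gene Scaf4 on the opposite strand share 650 bases, and Scaf4 was at 1.76 to 5.52 FPKM.

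Gpx8 had 0.827, 0 and 0.279 FPKM in melatonin-vitrified replicates 1 to 3, against 1.26, 4.30 and 1.92 FPKM in vitrified replicates 1 to 3. The highest melatonin-vitrified value was under the lowest vitrified value. Its log2 fold change was -1.30 ± 0.37 (SE, interval -2.12 to -0.48), with an unadjusted p of 0.00561 and a limma adjusted p of 0.194. It was -0.95 without vitrified replicate 2 (limma adjusted p = 0.46), and the adjusted p ran from 0.0612 to 0.46 over all settings. Because the level is near the pseudocount of 1, the fold change depends on it, and with a pseudocount of 0.1 it was -2.81.

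By estimate, few fragments stand behind these Gpx8 values, and the numbers given are the smallest that fit the FPKM. The FPKM steps correspond to an estimated 6, 0 and 2 fragments in melatonin-vitrified replicates 1 to 3, to 9, 30 and 16 in vitrified replicates 1 to 3, and to 6 and 10 in fresh replicates 1 and 2. The exact 95% Poisson interval was 2.2 to 13.1 fragments for melatonin-vitrified replicate 1 and 4.12 to 17.1 fragments for vitrified replicate 1, so the intervals of that pair overlapped. A count of 0 in melatonin-vitrified replicate 2 allows up to 3 fragments, or 0.502 FPKM, as a one-sided limit, and the upper end of its two-sided interval was 3.69 fragments. Gpx8 lies wholly inside Cdc20b, a gene on the opposite strand at 0.252 to 1.57 FPKM, and the sources used here do not say whether counting used strand.

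**Figure D3:**
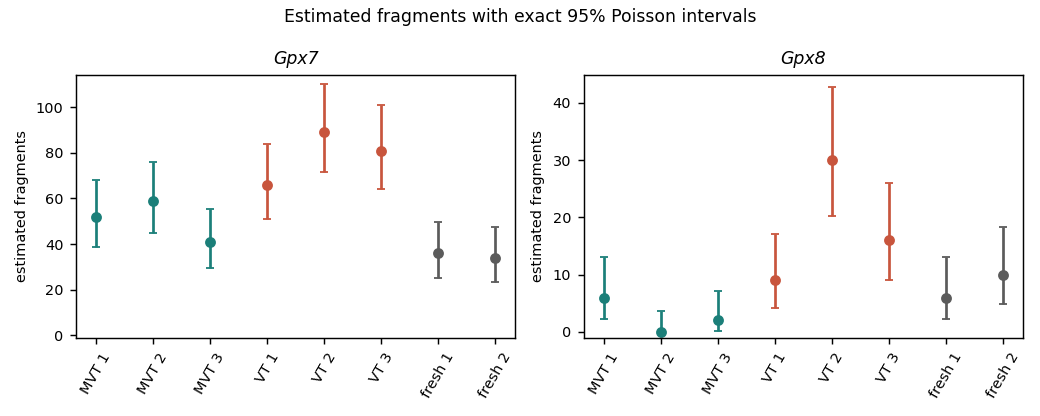
Estimated fragments of Gpx7 and Gpx8 (vertical axes, linear) in each library of melatonin-vitrified (MVT), vitrified (VT) and fresh blastocysts, with exact 95% Poisson intervals that cover counting error only. Gpx7 rested on 34 to 89 fragments and Gpx8 on 0 to 30, with vitrified replicate 2 highest for both genes.

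Gpx4 had 48.3, 51.5 and 52.7 FPKM in melatonin-vitrified replicates 1 to 3, against 58.6, 56.3 and 61.5 FPKM in vitrified replicates 1 to 3. The groups did not overlap, yet the gap was small, with a log2 fold change of -0.21 (interval -0.68 to 0.27, limma adjusted p = 0.675). Gpx4 is needed for survival of the early mouse embryo and is known as the enzyme that holds back ferroptosis, an iron-dependent form of cell death.

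Gpx3 varied more within the melatonin-vitrified group than within the vitrified or fresh group, with 43.2, 9.82 and 14.5 FPKM in replicates 1 to 3, against 30.9, 51.4 and 35.1 FPKM in vitrified replicates 1 to 3. Melatonin-vitrified replicate 1 lay inside the vitrified range and the other melatonin-vitrified libraries lay under it. Gpx3 had a log2 fold change of -1.01 (interval -2.04 to 0.03, limma adjusted p = 0.35). It was -1.60 without melatonin-vitrified replicate 1 and -0.58 without melatonin-vitrified replicate 2. The coefficient of variation of Gpx3 was 80.3% in melatonin-vitrified, 27.7% in vitrified and 39.1% in fresh blastocysts.

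Gpx7 had 4.49, 6.20 and 3.58 FPKM in melatonin-vitrified replicates 1 to 3, against 5.80, 8.01 and 6.09 FPKM in vitrified replicates 1 to 3. Melatonin-vitrified replicate 2 lay inside the vitrified range, and the log2 fold change was -0.42 (interval -0.95 to 0.11, limma adjusted p = 0.43). Cat was the one gene with a positive value, 0.10 (interval -0.40 to 0.60), from 26.9, 28.0 and 17.0 FPKM in melatonin-vitrified replicates 1 to 3, against 27.6, 18.4 and 20.2 FPKM in vitrified replicates 1 to 3. The groups overlapped fully, and without vitrified replicate 2 the Cat value was -0.01. Sod2 had 174, 242 and 235 FPKM in melatonin-vitrified replicates 1 to 3, against 255, 221 and 230 FPKM in vitrified replicates 1 to 3 (log2 fold change -0.13, interval -0.51 to 0.26). Gpx1 had 48.5, 59.0 and 52.4 FPKM in the melatonin-vitrified libraries, against 51.9, 62.4 and 68.2 FPKM in the vitrified ones (log2 fold change -0.18, interval -0.58 to 0.22).

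Log2 fold changes were thus negative for 7 of 8 genes in melatonin-vitrified against vitrified blastocysts, also after quantile normalization and after median-ratio scaling. With the FPKM as deposited the median of the 8 genes was -0.31, beside -0.05 over all tested genes. Gpx8 is in that median and among the negative values, as a description and no support. Under the filter on means of 5 FPKM, which leaves out Gpx8, the median of 7 genes was -0.21, beside -0.01 over the genes then tested. Of all tested genes, 43.8% had a positive log2 fold change with the FPKM as deposited. That share was 52.2% after quantile normalization and 50.8% after median-ratio scaling. Primitive endoderm markers summed to 27.8 to 37.3 FPKM in melatonin-vitrified and 46.6 to 57.8 FPKM in vitrified blastocysts, and 3 blood markers to 2.57 to 3.90 and 5.20 to 7.27 FPKM. Their part in the differences was not tested.

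Melatonin-vitrified and fresh blastocysts were compared to see where levels stood after both treatments. None of the 8 genes passed limma at a Benjamini-Hochberg adjusted p below 0.05, nor did any other gene (0% of 10755). At an unadjusted p below 0.05 there was 1 of 8, Cat, beside 18.5% of all tested genes. Cat was also the only 1 of the 8 without overlap, beside 34.3% of all tested genes.

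Cat had 26.9, 28.0 and 17.0 FPKM in melatonin-vitrified replicates 1 to 3, against 15.9 and 14.4 FPKM in fresh replicates 1 and 2. Melatonin-vitrified replicate 3 lay just above the fresh pair and the other melatonin-vitrified libraries well above it. Cat had a log2 fold change of 0.60 ± 0.25 (SE, interval 0.03 to 1.16) with an unadjusted p of 0.0396 and a limma adjusted p of 0.249, which ran from 0.165 to 0.554 over all settings. Cat rested on an estimated 263 to 607 fragments per library, far more than Gpx7 or Gpx8. Inner cell mass markers summed to 128 to 148 FPKM in melatonin-vitrified and 21.3 to 71.0 FPKM in fresh blastocysts, and the mitochondrial share was 4.24% to 4.93% in melatonin-vitrified and 6.55% and 11.3% in fresh libraries. Their part in this comparison was not tested.

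For Gpx7, means were 4.76 ± 1.33 FPKM (SD, n = 3) in melatonin-vitrified and 2.92 ± 0.98 FPKM (SD, n = 2) in fresh blastocysts, a log2 fold change of 0.55 (interval -0.04 to 1.15, limma adjusted p = 0.298). For Gpx8, means were 0.368 ± 0.42 FPKM in melatonin-vitrified and 1.14 ± 0.779 FPKM in fresh blastocysts (log2 fold change -0.64, interval -1.56 to 0.28). Gpx7 and Gpx8 thus had opposite signs here, and neither interval left out 0.

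Sod1 averaged 23.9 ± 1.31 FPKM in melatonin-vitrified and 26.8 ± 5.09 FPKM in fresh blastocysts, a log2 fold change of -0.15 (interval -0.71 to 0.41). Sod2 stood at -0.09 (interval -0.52 to 0.34), Gpx1 at -0.15 (interval -0.60 to 0.29), and Gpx3 at -0.18 with the widest interval, -1.34 to 0.98. Gpx4 was at -0.40 (interval -0.93 to 0.13, limma adjusted p = 0.396). Which fresh library was kept decided the Gpx4 value. Without fresh replicate 1 it was 0.06 (limma adjusted p = 0.907), and without fresh replicate 2 it was -0.86 with a limma adjusted p of 0.0316, a call that rests on a single fresh library.

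Without fresh replicate 1, 7 of 8 genes had a positive log2 fold change in melatonin-vitrified against fresh blastocysts, against 2 of 8 with both fresh libraries (3 of 8 after quantile normalization and 2 of 8 after median-ratio scaling). The values that turned were Sod1 at 0.04, Sod2 at 0.12, Gpx1 at 0.11, Gpx3 at 0.21 and Gpx4 at 0.06. The median over the 8 genes was -0.15 with both fresh libraries and 0.12 without fresh replicate 1, beside 0.09 and 0.01 over all tested genes. Of all tested genes, 59.2% had a positive log2 fold change with both fresh libraries and 51.1% without fresh replicate 1.

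Ratios of genes within a library do not depend on the scaling between libraries. Sod2 exceeded Sod1 by 7.10, 9.76 and 10.5 times in melatonin-vitrified replicates 1 to 3, by 8.62, 4.02 and 6.52 times in vitrified replicates 1 to 3, and by 8.73 and 8.53 times in fresh replicates 1 and 2. The groups overlapped, with the lowest ratio in vitrified replicate 2, where Sod1 was highest. The Gpx1 to Gpx4 ratio stayed between 0.768 and 1.14, while the Gpx3 to Gpx4 ratio ran from 0.191 to 0.913.

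Other genes of the families add to this picture. Gpx2, the selenocysteine peroxidase best known from the gut epithelium (chromosome 12, 76792333 to 76795554, minus strand), is close to Gpx1 in sequence, with 30 of 36 bases shared around its TGA codon. It had 8.00, 14.2 and 19.4 FPKM in melatonin-vitrified replicates 1 to 3, 10.4, 35.9 and 25.6 FPKM in vitrified replicates 1 to 3, and 69.0 and 23.7 FPKM in fresh replicates 1 and 2. Every melatonin-vitrified library lay under the fresh pair, with a log2 fold change of -1.56 (SE 0.56, unadjusted p = 0.0204, limma adjusted p = 0.205). A processed pseudogene of Gpx2 was listed at 0.924 to 19.1 FPKM, and how reads were divided between the copies is not given in the sources used here. Gpx5 was at 0 to 0.77 FPKM and Gpx6 at 0 to 0.36 FPKM, below the level tested, and Sod3 was not analysed here.

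Partner genes that feed, mature or parallel the enzymes were taken as lists, described by counts and medians. No gene of any list passed limma at an adjusted p below 0.05 in any of the 3 comparisons. The genes described first in each list are among those of highest mean FPKM, and further genes named for an unadjusted p below 0.05 were chosen after their values were seen. Over all tested genes, 20.2% stood below that p in vitrified against fresh, 14.8% in melatonin-vitrified against vitrified and 18.5% in melatonin-vitrified against fresh blastocysts.

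Genes for maturation and import of the enzymes (6 tested) had a median log2 fold change of 0.19 in vitrified against fresh and 0.05 in melatonin-vitrified against vitrified blastocysts. Slc25a39, the mitochondrial glutathione carrier, averaged 77.5 ± 7.10 FPKM in vitrified and 109 ± 0.334 FPKM in fresh blastocysts (limma adjusted p = 0.12). Ccs, the copper chaperone of Sod1, averaged 74.1 ± 7.81 FPKM in melatonin-vitrified and 72.2 ± 10.2 FPKM in vitrified blastocysts (log2 fold change 0.04), beside the lower Sod1 mean described above. Pex7, the peroxisomal import receptor for the second type of targeting signal, had unadjusted p-values of 0.00656 in vitrified and 0.00519 in melatonin-vitrified against fresh blastocysts, with log2 fold changes of 0.69 and 0.72. Pex13, a peroxisomal import factor, stood at 0.35 in melatonin-vitrified against vitrified (unadjusted p = 0.0387) and at 0.55 in melatonin-vitrified against fresh blastocysts (unadjusted p = 0.00809). Pex5 and Pex14, of the same list, stood at 0.32 and 0.18 in vitrified and at 0.08 and 0.23 in melatonin-vitrified against fresh blastocysts. Neither had a limma unadjusted p below 0.05 in any comparison. Whether any of these import genes bears on Cat was not tested.

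The selenocysteine insertion machinery (8 tested) had a median log2 fold change of -0.0024 in vitrified against fresh and -0.02 in melatonin-vitrified against vitrified blastocysts, with 0 of 8 genes at an unadjusted p below 0.05 in both, beside 20.2% and 14.8% of all tested genes. Sephs2, which makes the selenium donor, averaged 122 ± 15.7, 102 ± 5.10 and 125 ± 12.5 FPKM in melatonin-vitrified, vitrified and fresh blastocysts. Eefsec, the elongation factor that brings selenocysteine to the ribosome, averaged 18.1 ± 2.81, 16.8 ± 2.66 and 11.3 ± 4.93 FPKM in the same groups. It had an unadjusted p of 0.0263 in melatonin-vitrified against fresh blastocysts.

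Other selenoproteins (15 tested) had medians of -0.03 in vitrified against fresh, -0.21 in melatonin-vitrified against vitrified and -0.33 in melatonin-vitrified against fresh blastocysts. Selenow averaged 236 ± 89.8, 353 ± 33.9 and 394 ± 234 FPKM in melatonin-vitrified, vitrified and fresh blastocysts. Selenok, of the endoplasmic reticulum membrane, averaged 83.9 ± 20.9 FPKM in vitrified and 121 ± 5.24 FPKM in fresh blastocysts (limma adjusted p = 0.163). With Selenos, Selenot and Selenof it was among 4 of 15 genes at an unadjusted p below 0.05 in that comparison, all 4 lower in vitrified blastocysts, beside 20.2% of all tested genes. Selenos, its partner in degradation of misfolded proteins, had the smallest limma adjusted p, 0.0753, at a log2 fold change of -0.79. In melatonin-vitrified against vitrified blastocysts there were also 4 of 15, Txnrd3 (-0.67), Selenon (-0.58), Txnrd2 (-0.54) and Selenoh (-0.53), beside 14.8% of all tested genes. Txnrd3 was at 0.148, 0.540 and 0.150 FPKM in melatonin-vitrified replicates 1 to 3. It met the filter on low values only through vitrified and fresh libraries. Its p and its place in this count are thus a description and no support.

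Glutathione supply and recycling (10 tested) had a median log2 fold change of 0.30 in vitrified against fresh blastocysts, with 4 of 10 genes at an unadjusted p below 0.05 and all 4 higher in vitrified blastocysts. Over all tested genes 20.2% stood below that p and 63.5% had a positive log2 fold change. Slc3a2, the heavy chain of the cystine transporter, averaged 91.5 ± 24.3, 77.8 ± 8.29 and 114 ± 41.2 FPKM in melatonin-vitrified, vitrified and fresh blastocysts. Slc7a11, the light chain of that transporter, was at 0 to 0.102 FPKM over the libraries, below the level tested. The Slc3a2 values thus do not give the level of the whole transporter. Idh1, the cytosolic isocitrate dehydrogenase, had 89.0, 118 and 97.8 FPKM in vitrified replicates 1 to 3, against 55.8 and 49.3 FPKM in fresh replicates 1 and 2. The groups were far apart, with a log2 fold change of 0.93 ± 0.19 (SE) and a limma adjusted p of 0.0541. Idh2, its mitochondrial counterpart, had 38.4, 44.0 and 41.9 FPKM in vitrified replicates 1 to 3, against 24.6 and 24.3 FPKM in fresh replicates 1 and 2 (log2 fold change 0.74, limma adjusted p = 0.0607). G6pdx, of the pentose phosphate pathway, was at 0.87 (limma adjusted p = 0.12) and Nnt, the mitochondrial transhydrogenase, at 0.74 (limma adjusted p = 0.147). Nnt was at 0.377 and 0.255 FPKM in fresh replicates 1 and 2. It met the filter on low values only through vitrified and melatonin-vitrified libraries. Its p and its place in the count are thus a description and no support.

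In melatonin-vitrified against vitrified blastocysts the glutathione list had a median of -0.08. Idh1 had a log2 fold change of -0.45 (limma adjusted p = 0.272), from 68.5, 89.5 and 64.9 FPKM in melatonin-vitrified replicates 1 to 3. G6pdx stood at -0.61 and Gss, glutathione synthetase, at 0.40 (unadjusted p-values 0.0323 and 0.0425).

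**Figure D4:**
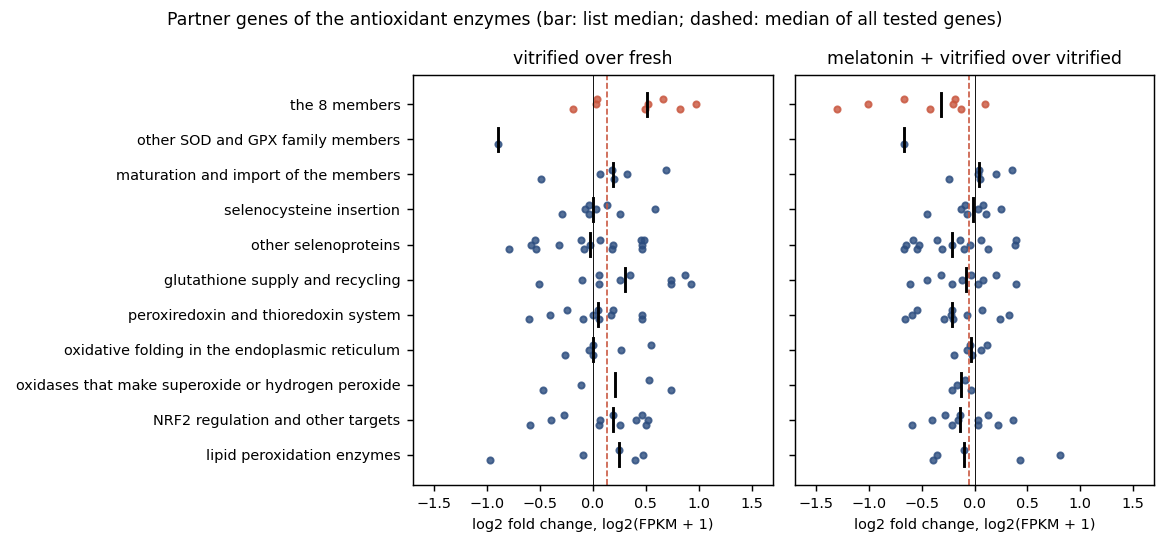
Log2 fold changes of the 8 antioxidant enzymes and of each partner list (rows) on the log2(FPKM + 1) scale, for vitrified over fresh and melatonin-vitrified over vitrified blastocysts; each point is a tested gene, the black bar the list median and the dashed line the median of all tested genes. The 8 genes had medians of 0.51 in the first panel and -0.31 in the second, where all tested genes had 0.14 and -0.05. Gpx8, which met the filter on low values through libraries in which it was high, is included as a description.

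Peroxiredoxins and thioredoxins (11 tested), which remove peroxides alongside the glutathione peroxidases, had medians of 0.05 in vitrified against fresh and -0.21 in melatonin-vitrified against vitrified blastocysts. Txn1, cytosolic thioredoxin, averaged 224 ± 13.6, 275 ± 36.7 and 300 ± 96.4 FPKM in melatonin-vitrified, vitrified and fresh blastocysts, a level like that of Sod2. Prdx1 averaged 237 ± 29.0, 274 ± 55.4 and 261 ± 40.9 FPKM in the same groups. Neither had an unadjusted p below 0.05 in any comparison. In vitrified against fresh blastocysts 2 of 11 genes did, mitochondrial Txn2 (log2 fold change -0.60) and Prdx5 (-0.41), beside 20.2% of all tested genes. In melatonin-vitrified against vitrified blastocysts 3 of 11 did, Prdx2 (-0.66), Srxn1 (-0.59), which repairs oxidised peroxiredoxins, and Txnrd2 (-0.54), beside 14.8%.

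Oxidative folding in the endoplasmic reticulum (6 tested), the pathway in which Gpx7 and Gpx8 act, had medians of 0.0043 and -0.03 in the same pair of comparisons. Pdia3 averaged 269 ± 22.8, 257 ± 8.64 and 215 ± 38.2 FPKM in melatonin-vitrified, vitrified and fresh blastocysts, and P4hb, protein disulphide isomerase, 174 ± 43.0, 173 ± 12.6 and 178 ± 0.728 FPKM. P4hb, a partner of Gpx7 and Gpx8 in this pathway, thus had log2 fold changes of -0.04 and -0.02. The isomerase Pdia4 was the one gene of the list at an unadjusted p below 0.05 in vitrified against fresh blastocysts, with a log2 fold change of 0.55 (unadjusted p = 0.0123, limma adjusted p = 0.131). Over all tested genes 20.2% stood below that p.

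Of 16 listed oxidases that make superoxide or hydrogen peroxide, 4 were tested, with medians of 0.21 and -0.13. Cyba, a membrane subunit of NADPH oxidases, averaged 75.3 ± 28.0, 74.4 ± 12.7 and 105 ± 32.5 FPKM in melatonin-vitrified, vitrified and fresh blastocysts. Of the NADPH oxidase genes listed with it, Nox1 was at 0.694 to 1.81 FPKM over the libraries. Cybb was at 0 to 0.626 FPKM and Nox4 at 0 to 0.0691 FPKM. Paox, a polyamine oxidase, was the 1 of 4 at an unadjusted p below 0.05 in vitrified against fresh blastocysts (log2 fold change 0.74, unadjusted p = 0.00952, limma adjusted p = 0.119). Over all tested genes 20.2% stood below that p. NRF2 regulation and other targets (11 tested) had medians of 0.19 and -0.13. Nfe2l2, which encodes NRF2, averaged 36.4 ± 2.15, 41.0 ± 11.5 and 28.4 ± 6.43 FPKM, and its target Hmox1 averaged 15.8 ± 3.44, 15.2 ± 1.63 and 23.4 ± 0.733 FPKM. Hmox1 had limma unadjusted p-values of 0.0172 and 0.0225 for vitrified and for melatonin-vitrified against fresh blastocysts. It was the 1 of 11 below 0.05 in each, beside 20.2% and 18.5% of all tested genes. The targets Txnrd1, Srxn1, Nqo1 and Gclm had log2 fold changes of 0.46, 0.19, 0.07 and 0.06 in vitrified against fresh blastocysts. In melatonin-vitrified against fresh blastocysts they were 0.25, -0.40, -0.21 and 0.09.

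Genes of lipid peroxidation and its control (5 tested), the process that Gpx4 counters, had medians of 0.25 and -0.10. The first median is the value of Acsl4, which reached 1 FPKM only in vitrified replicates 2 and 3, at 1.19 and 1.13 FPKM. Acsl4 thus met the filter on low values only through vitrified libraries. Its place in these medians is a description and no support. Lpcat3, which places polyunsaturated fatty acids into membrane lipids, averaged 25.9 ± 2.16, 27.9 ± 3.00 and 20.98 ± 2.40 FPKM in melatonin-vitrified, vitrified and fresh blastocysts. Alox12, a lipoxygenase, averaged 7.23 ± 3.41, 3.47 ± 0.40 and 8.34 ± 4.75 FPKM, with every vitrified library under every library of the other groups. Its log2 fold changes were -0.97 in vitrified against fresh and 0.81 in melatonin-vitrified against vitrified blastocysts (limma adjusted p = 0.189 and 0.303). With Lpcat3 in the first of these comparisons and Aifm2, a ferroptosis suppressor (log2 fold change 0.43), in the second, 2 of 5 genes stood at an unadjusted p below 0.05 in each. Over all tested genes 20.2% and 14.8% stood below that p in the same order.

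Tested genes with a mean of at least 5 FPKM and a symbol that was not provisional were searched for patterns like those of the enzymes. Those most like each enzyme over the 8 libraries were found by Pearson's r of log2(FPKM + 1). These values are descriptive, since all points share 8 libraries and their depth. Sod1 was closest to Crip1 (r = 0.965) and Dpm1 (0.954), and Cat to Wdr91 (0.951) and Psmd2 (0.946). For Sod2, r with Ocm was 0.925. Gpx1 was closest to Tor1a (0.931) and Ift27 (0.924), Gpx4 to Cdc34 (0.979) and Fibp (0.967), and Gpx3 to Pfkl (0.928) and Rab31 (0.925). Gpx7 was closest to Stt3a (0.967) and Efcab10 (0.950), and Gpx8 to Cyr61 (0.960) and Mfap1b (0.956).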

How the data were processed

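The deposited table holds FPKM per gene and library, computed by the authors on genome build mm10, per the submitters' processing notes. Aligner, counter, annotation and strandedness of the counting were not given in the sources. The design text names Smart-seq2, while the labels' protocols describe poly(A) selection and stranded libraries. Group contrasts came from limma 3.58.1 (R 4.3.3), fitted to log2(FPKM + 1) in 1 model over the 8 libraries with a variance trend, for genes with at least 1 FPKM in at least 2 libraries, two-sided, with Benjamini-Hochberg adjustment over 10755 genes. Folds on this scale understate changes of low genes.

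Fragments were estimated from the steps of FPKM times length. Low values fell within 0.1 of a whole number for 92.6% to 97.3% per library. Lengths were resolved for Sod1, Cat, Gpx7 and Gpx8, within 0.05 of a fragment, and not for Sod2, Gpx1, Gpx4 and Gpx3. The shortest length that made the values of all libraries whole was taken. Multiples of that length fit as well, so the fragment numbers are the smallest that fit. Poisson intervals (95%) and the limit of 3 fragments at a count of 0 cover counting error only.

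Gene names and coordinates come from GENCODE M21 on mm10. Coding sequences were read with Python 3.11.15 and Biopython 1.88. The members, lists and tests were chosen with earlier results of these data known. All members were named with every library's value, and of each list with no gene past the threshold the 2 genes of highest mean FPKM; some genes that this rule takes are not reported here. Groups and replicate numbers follow the biosample labels. Settings tried were quantile and median-ratio scaling, a pseudocount of 0.1, omission of the trend or of the filter, a filter on means of 5 FPKM, 2 groups alone, replicate blocks, library weights and leaving out each library.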

Additional observations from a re-analysis of the deposited data

How the results depend on the processing

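None of the 8 genes passed limma at an adjusted p below 0.05 in any comparison under any setting, except Gpx4 in melatonin-vitrified against fresh blastocysts without fresh replicate 2, so the number called ran from 0 to 1 when single libraries were left out. Among the log2 fold changes recomputed under other settings, 406 kept direction and side of the threshold, 22 changed sign and 1, that of Gpx4, passed the threshold. Leaving out single libraries gave these ranges for genes that changed sign. In vitrified against fresh they were -0.17 to 0.25 for Sod2, -0.23 to 0.29 for Gpx1 and -0.65 to 0.27 for Gpx4. In melatonin-vitrified against vitrified they were -0.213 to 0.0233 for Sod2 and -0.0225 to 0.324 for Cat. In melatonin-vitrified against fresh they were -0.336 to 0.0401 for Sod1, -0.302 to 0.119 for Sod2, -0.418 to 0.11 for Gpx1, -0.856 to 0.0643 for Gpx4 and -0.77 to 0.24 for Gpx3. Quantile normalization gave 0.0667 for Sod2 in melatonin-vitrified against fresh, and median-ratio scaling -0.16 for Sod2 and -0.17 for Gpx1 in vitrified against fresh. With the replicate block, biosample numbers gave -0.0085 for Gpx1 in vitrified against fresh, and title numbers -0.0837 for Sod2 and -0.31 for Gpx1 there (0.0595 for Sod1 and 0.0514 for Gpx3, with a median of 0.0554 over the 8 genes beside 0.211 over all) and -0.11 for Cat in melatonin-vitrified against vitrified.

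The background moved more. Against 93 genes called in vitrified against fresh (82 higher, 11 lower), there were 5 under quantile normalization (2 higher, 3 lower), 7 under median-ratio scaling (3 higher, 4 lower), 1 with no filter, 11 with these 2 groups alone, 1 with library weights, and 2 to 433 with single libraries left out. Against 15 in melatonin-vitrified against vitrified there were 9 under quantile normalization, 6 with a pseudocount of 0.1, 68 with 2 groups alone, 233 with weights, and 1 to 68 with single libraries left out. In melatonin-vitrified against fresh, 0 became 5 with a pseudocount of 0.1, 2 with 2 groups alone, and 0 to 565 with single libraries left out. The cause was not tested. Same-numbered libraries did not deviate together (r of -0.115 to 0.121), so the numbers were not taken as pairs; the block by biosample number gave 1 call in vitrified against fresh and 1 in melatonin-vitrified against vitrified, and the block by title number 39, 0 and 44 in the 3 comparisons. A fit without a fresh library leaves 1, assumed to vary like the other groups. Gpx8 has no value under the 5 FPKM mean.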
